A study of Rattus norvegicus with 18 samples.

Results

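MWCNT-treated rats and control rats were compared at Year 1, the middle time point of a 2-year study, in lung RNA of 6 of the 18 rats sequenced. The members were chosen by the labels alone, 3 rats a side, and no other rat entered the main comparison. The MWCNT was MWNT-7, a rigid multiwalled carbon nanotube, given into the trachea at 0.5 mg/kg body weight once every 4 weeks from 9 weeks of age. Control rats received the vehicle, saline with a detergent, on the same schedule. All rats were male F344/DuCrlCrlj rats, and the samples were small pieces of the accessory lobe without visible tumor tissue, so each library is a mixture of all cells of such a piece. Different rats were killed at each time point, and each library came from 1 rat.

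Long, stiff nanotubes are poorly cleared from the alveoli. Alveolar macrophages that have taken up such fibers release chemokines and proteases, and carry lysosomes that must deal with a material they cannot digest. The alveolar wall they lie on is made of thin type 1 cells, surfactant-making type 2 cells, a dense capillary endothelium and a sparse mesenchyme, and type 2 cells are the ones that divide and replace lost epithelium after injury. Lung tissue also holds airway lining with club and ciliated cells, and blood.

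The libraries held between 13651405 and 17868851 counts in the control rats and between 15780916 and 17158389 in the MWCNT-treated rats. Markers of lung were high in every rat, among them Sftpc at 23609, 22587 and 22423 TPM in the control rats and 36916, 39059 and 37788 TPM in the MWCNT-treated rats. MWCNT rat 2 stood somewhat apart from the other MWCNT-treated rats, with a median absolute log2 difference across genes of 0.193 and 0.188 to rats 1 and 3, against 0.118 between those 2 rats and 0.111 to 0.162 among the control rats. The gene with most counts in every library was Lyz2, the lysozyme of macrophages and type 2 cells, with 1.64% to 1.72% of counts in the control rats and 3.57% to 4.18% in the MWCNT-treated rats. A DEG is a gene with an FDR below 0.05 and a log2 fold change beyond 1, that is, more than 2-fold, in edgeR's quasi-likelihood test. Levels are given as TPM, a measure of transcript abundance that is scaled by transcript length and library size. Fold changes come from counts scaled by TMM and not from TPM, so a TPM ratio reads lower for MWCNT-treated rats than the log2 fold change beside it.

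Of 14345 genes tested, 1467 (10.2%) were DEGs, 880 (6.13%) higher and 587 (4.09%) lower in the MWCNT-treated rats. A further tier passed the FDR alone, so that 5913 genes (41.2%) had an FDR below 0.05, 3095 (21.6%) higher and 2818 (19.6%) lower. The rises were larger than the falls. The median absolute log2 fold change was 1.52 for the higher DEGs and 1.24 for the lower DEGs, and 237 genes rose more than 4-fold against 36 that fell by as much. Beyond 32-fold there were 23 rises and 0 falls. In 871 of the 880 higher DEGs and 572 of the 587 lower DEGs the 2 groups did not overlap, where 54.9% of all tested genes did not overlap (28.5% with the MWCNT-treated rats higher and 26.4% lower). The balance of the DEGs depended on the scaling. When library size alone replaced TMM, the median over all genes moved by -0.13 on the log2 scale, and 739 genes were higher and 895 lower, so that 45.2% of DEGs were higher against 60% with TMM. With limma on log2(TPM + 1) the median moved by -0.23, with 472 higher and 680 lower, or 41.0% higher. With limma on log2(TPM + 0.1) 616 were higher and 1173 lower, or 34.4% higher.

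**Figure D1:**
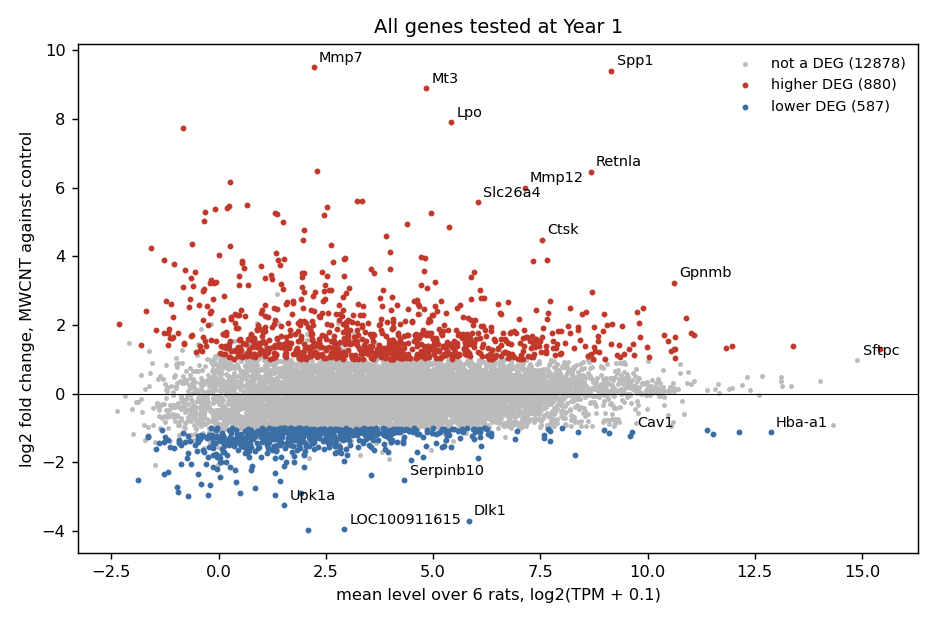
Each point is 1 of the 14345 genes tested at Year 1, with the mean level over the 6 rats on the x axis as log2(TPM + 0.1) and the log2 fold change of MWCNT-treated against control rats on the y axis. The 880 higher DEGs reach far above the grey cloud, while of the 587 lower DEGs 36 fell more than 4-fold.

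The largest rises were found in secreted proteases, a macrophage cytokine, a metal-binding protein and a peroxidase (gene coordinates are those of Rnor_6.0). Mmp7 (matrilysin, a protease of epithelial cells; chromosome 8, 5893249 to 5901049, + strand) had 0, 0 and 0 counts in the control rats and 73, 113 and 80 counts in the MWCNT-treated rats. Mmp7 was thus not counted in any control rat, and against a floor of 3 counts in each control rat it was at least 30.5-fold higher. Spp1 (osteopontin, a secreted phosphoprotein of activated macrophages; chromosome 14, 6673686 to 6679901, - strand) went from 1.996, 2.47 and 1.56 TPM to 1209, 1249 and 963 TPM (log2 fold change 9.40, SE 0.21, FDR 4.31e-08). Mt3 (metallothionein-3, a zinc- and copper-binding protein best known from brain; chromosome 19, 11324698 to 11326139, - strand) had 0, 0 and 1 counts in the control rats and 152, 320 and 153 counts in the MWCNT-treated rats. The ratio of the Mt3 group totals was 658, with a 95% interval of 118 to 26014 from counting error alone, since the control rats held a single count among them. Lpo (lactoperoxidase, an antimicrobial enzyme of mucosal secretions; chromosome 10, 75100385 to 75120247, - strand) went from 0.246, 0.458 and 0.501 TPM to 107, 64.03 and 83.1 TPM (log2 fold change 7.90, SE 0.25, FDR 5.41e-07). Groups that do not overlap and a large rise were conditions for the choice of these 4 genes. The wide margin between the groups in each follows from that choice.

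Retnla (also called Fizz1, a secreted product of type 2 cytokine signalling) went from 9.19, 9.60 and 13.2 TPM to 957, 883 and 575 TPM (log2 fold change 6.46, SE 0.26, FDR 1.31e-06). Mmp12 (macrophage elastase; chromosome 8, 5606592 to 5616493, + strand) went from 5.57, 5.32 and 4.48 TPM to 268, 289 and 269 TPM (log2 fold change 5.99, SE 0.12, FDR 4.31e-08), and the MWCNT-treated rats were close to each other. Slc26a4 (pendrin, an anion exchanger of airway epithelium) went from 2.82, 2.75 and 3.85 TPM to 150.4, 115 and 119 TPM (log2 fold change 5.57, SE 0.15, FDR 2.09e-07). The other leading rises were lower in level. Psca, a surface antigen of mucosal epithelium, went from 0.670, 0.311 and 0.262 TPM to 11.8, 26.2 and 15.97 TPM, and Sctr, the secretin receptor of ductal epithelium, went from 0.736, 0.228 and 0.448 TPM to 11.4, 26.1 and 20.99 TPM. Defb3, a beta-defensin, had 0, 1 and 0 counts in the control rats and 34, 31 and 51 counts in the MWCNT-treated rats. Srd5a2, a steroid 5-alpha-reductase, had 2, 0 and 0 counts in the control rats and 22, 52 and 26 counts in the MWCNT-treated rats, and Smtnl1, a smoothelin-like protein of muscle, had 2, 0 and 0 counts in the control rats and 31, 32 and 34 counts in the MWCNT-treated rats. With 1 or 2 counts in all control rats together, their group ratios carried wide counting intervals, 122 (21.5 to 4862) for Defb3, 52.6 (14.2 to 440.4) for Srd5a2 and 51.0 (13.8 to 427) for Smtnl1.

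Promoters were read for the genes with the largest rise. RefSeq promoter windows of the GRCr8 build, which run from 250 bases before to 50 bases after the transcription start, were matched by symbol for 10 of the 12 genes. The windows were searched on both strands for TGANTCA, the binding site of AP-1 (the Fos and Jun proteins), and for TGCACNC or TGCGCNC, the core of the metal response element that the factor MTF1 binds. An AP-1 site was found in 4 of the 10 windows, those of Mmp7, Retnla, Mmp12 and Smtnl1, where 7.33% of all 33469 promoter windows and 5.17% of the 12033 windows of tested genes held such a match. The metal response core was found in 2 of the 10 windows, those of Mt3 and Smtnl1, where 24.2% of all windows and 35.2% of those of tested genes held it. The windows of Mmp7, Mmp12 and Retnla are printed because they hold 3 of the 4 AP-1 matches, and that of Mt3 because it holds the most metal response cores. Matches on either strand are in capitals, and no printed matches overlap.
Mmp7 promoter (chr8:13132793-13133092, + strand, AP-1 match starting 80 bases before the start): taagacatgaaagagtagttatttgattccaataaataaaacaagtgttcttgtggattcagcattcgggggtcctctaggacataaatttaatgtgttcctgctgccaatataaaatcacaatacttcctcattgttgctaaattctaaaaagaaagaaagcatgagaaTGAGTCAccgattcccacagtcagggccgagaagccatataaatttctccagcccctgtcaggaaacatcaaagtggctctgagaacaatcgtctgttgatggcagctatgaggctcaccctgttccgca
Mmp12 promoter (chr8:12866402-12866701, + strand, AP-1 match 87 bases before the start): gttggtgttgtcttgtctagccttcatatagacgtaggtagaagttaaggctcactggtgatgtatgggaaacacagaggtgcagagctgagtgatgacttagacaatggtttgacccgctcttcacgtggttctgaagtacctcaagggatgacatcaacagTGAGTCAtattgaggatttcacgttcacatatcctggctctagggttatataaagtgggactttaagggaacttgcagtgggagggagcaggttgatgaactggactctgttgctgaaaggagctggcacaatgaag
Retnla promoter (chr11:65426137-65426436, - strand, AP-1 match 153 bases before the start): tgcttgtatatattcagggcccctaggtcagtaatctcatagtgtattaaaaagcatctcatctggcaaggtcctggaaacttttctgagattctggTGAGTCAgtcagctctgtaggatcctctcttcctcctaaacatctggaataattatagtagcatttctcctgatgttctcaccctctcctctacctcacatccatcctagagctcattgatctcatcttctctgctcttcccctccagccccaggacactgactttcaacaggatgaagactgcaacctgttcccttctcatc
Mt3 promoter (chr19:10856031-10856330, - strand, metal response cores 110, 81 and 51 bases before the start): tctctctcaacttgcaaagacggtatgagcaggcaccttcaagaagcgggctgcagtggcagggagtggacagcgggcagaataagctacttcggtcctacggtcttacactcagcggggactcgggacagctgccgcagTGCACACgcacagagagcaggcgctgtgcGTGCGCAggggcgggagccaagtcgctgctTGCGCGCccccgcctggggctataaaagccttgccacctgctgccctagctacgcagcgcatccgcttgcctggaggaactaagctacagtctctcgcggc
The Mt3 window held 3 metal response cores and the Smtnl1 window 1. A match describes the letters of the window only, and no binding was measured in these rats.

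**Figure D2:**
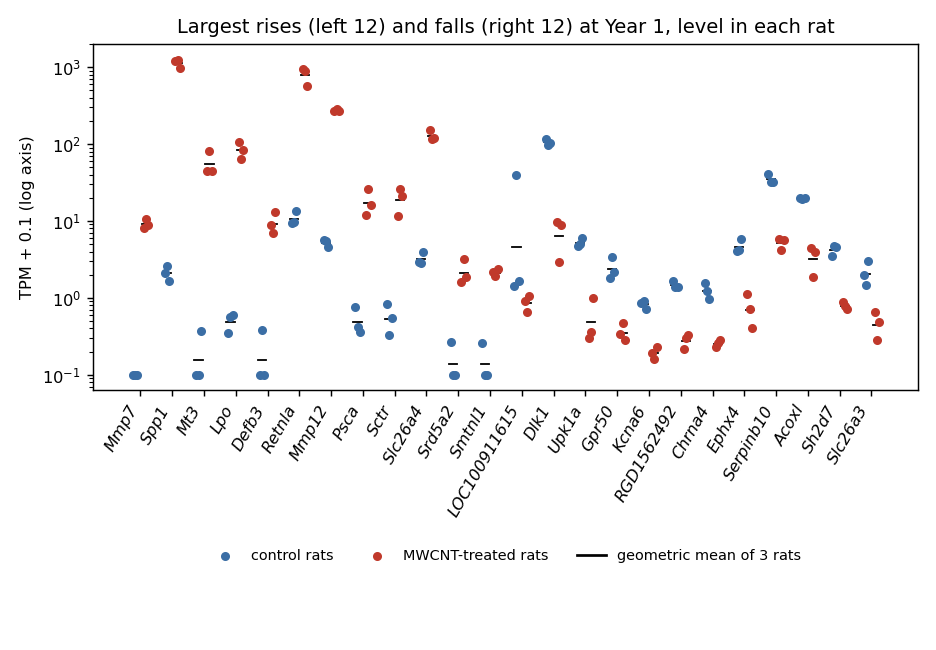
The level of each of the 12 genes with the largest rise (left) and the 12 with the largest fall (right) is shown in each rat as TPM + 0.1 on a log axis, with control rats in blue, MWCNT-treated rats in red and bars at the geometric mean of 3 rats. The genes were chosen among those whose groups do not overlap, and for LOC100911615 a single control rat lies far above the other 5 rats.

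The falls were smaller and came from genes of varied roles. Dlk1 (a non-canonical Notch ligand of an imprinted locus; chromosome 6, 133552821 to 133583751, + strand) went from 116, 98.3 and 104 TPM to 9.65, 2.86 and 8.86 TPM (log2 fold change -3.69, SE 0.30, FDR 3.44e-05), and the groups were far apart. Serpinb10, an intracellular serine protease inhibitor, went from 40.2, 31.9 and 32.04 TPM to 5.72, 4.11 and 5.62 TPM (log2 fold change -2.52, SE 0.16, FDR 8.19e-06), and Acoxl, an acyl-CoA oxidase-like protein, went from 20.01, 19.3 and 19.98 TPM to 4.34, 1.75 and 3.88 TPM (log2 fold change -2.36, SE 0.23, FDR 0.000107). Upk1a, a uroplakin of specialised epithelium, went from 4.56, 4.90 and 5.82 TPM to 0.201, 0.261 and 0.903 TPM. The rest were at a few TPM in control rats, among them Ephx4 from 3.92, 4.09 and 5.65 TPM to 1.03, 0.620 and 0.307 TPM, Sh2d7 from 3.35, 4.57 and 4.42 TPM to 0.791, 0.682 and 0.613 TPM and Slc26a3 (an intestinal chloride exchanger) from 1.89, 1.38 and 2.87 TPM to 0.557, 0.185 and 0.384 TPM. Gpr50 (a melatonin receptor relative), Kcna6 (a voltage-gated potassium channel), Chrna4 (a nicotinic receptor subunit) and RGD1562492 fell by 2.88, 2.72, 2.63 and 2.65 on the log2 scale. Among the 12 falls chosen for non-overlapping groups and at least 20 counts in every control rat, LOC100911615 had the most negative value, -3.95. Of the control rats, however, only rat 2 was high for LOC100911615. Its counts were 21, 673 and 31 in that group against 15, 12 and 18 after MWCNT. Without the single high control rat its log2 fold change was -0.69 with an FDR of 0.198, so this value is uncertain. The call was also lost without MWCNT rat 1, 2 or 3, with values of -3.97, -3.79 and -4.12.

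Genes of macrophages rose as a broad group. Of 20 macrophage identity genes tested, 17 passed the FDR upward and 1 downward, 12 and 1 of them as DEGs, with a median log2 fold change of 1.5 against 0.000533 over all genes tested. Cd68, a lysosomal glycoprotein of macrophages, went from 113, 98.3 and 93.3 TPM to 451, 556 and 444 TPM (log2 fold change 2.50, SE 0.14, FDR 4.92e-06), and C1qa, a complement subunit that tissue macrophages make, went from 77.8, 73.2 and 80.6 TPM to 285, 393 and 314 TPM (log2 fold change 2.34, SE 0.15, FDR 8.19e-06). The scavenger receptor Marco, which binds inhaled particles, went from 0.181, 0.337 and 0.0710 TPM to 3.28, 8.54 and 4.02 TPM (log2 fold change 4.99, SE 0.62, FDR 0.000349). The member that fell was Cd163, the hemoglobin-haptoglobin scavenger receptor (log2 fold change -1.15, SE 0.26, FDR 0.00681), and it went from 5.79, 10.7 and 8.90 TPM to 2.70, 2.50 and 4.53 TPM. In bulk tissue, fewer cells of a type and less RNA per cell cannot be told apart, and the same holds for more cells and more RNA per cell.

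Lipid-associated macrophage genes, a set described in lipid-laden macrophages of injured tissue, rose in 15 of 18 members with 0 falls, 11 of them as DEGs, and had a median of 1.62. Next to Spp1, Gpnmb (a glycoprotein of lipid-handling macrophages) went from 364, 367 and 324 TPM to 2625, 3232 and 2534 TPM (log2 fold change 3.23, SE 0.14, FDR 2.21e-06), and Fabp4, a fatty acid carrier, went from 28.4, 28.8 and 32.7 TPM to 337, 464 and 318 TPM (log2 fold change 3.88, SE 0.19, FDR 2.7e-06). Apoe, the lipid carrier, went from 873, 727 and 745 TPM to 2578, 3426 and 3047 TPM and Ctsd, a lysosomal aspartyl protease, from 1163, 1038 and 1026 TPM to 3186, 3183 and 2862 TPM. The summed level of the list was 5587 to 5966 TPM in the control rats and 16133 to 19065 TPM in the MWCNT-treated rats. Osteoclast and giant cell fusion genes rose in 8 of 11 and fell in 2, with a median of 1.11. These shares were 72.7% and 18.2%, beside 21.6% and 19.6% of all genes tested. The falls, Itgb3 and Tnfrsf11b, were 0 without control rat 1 and 1 without control rat 2 or any single MWCNT-treated rat. Ctsk (cathepsin K, the bone-resorbing protease) went from 22.02, 19.2 and 15.2 TPM to 315, 427 and 321 TPM (log2 fold change 4.49, SE 0.20, FDR 2.21e-06) and Atp6v0d2 (a proton pump subunit needed for cell fusion) from 5.59, 3.37 and 3.08 TPM to 48.3, 56.9 and 50.2 TPM (log2 fold change 3.95, SE 0.21, FDR 3.98e-06). Acp5, the tartrate-resistant phosphatase used to stain osteoclasts, went from 58.6, 57.4 and 56.1 TPM to 139, 162 and 139.8 TPM.

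Genes of the lysosome rose nearly as a whole. Of 34 lysosomal genes, 32 passed upward and 0 downward, 15 as DEGs, with a median of 0.87, where 21.6% of all tested genes passed upward. Npc2, which hands cholesterol out of the lysosome, went from 1178, 1097 and 1161 TPM to 3218, 3234 and 3026 TPM (log2 fold change 1.70, SE 0.091, FDR 3.98e-06), and Ctsz, a cathepsin, went from 169.7, 147 and 154 TPM to 486, 548 and 488 TPM (log2 fold change 1.93, SE 0.11, FDR 4.89e-06). Gusb, a lysosomal glucuronidase that is also in use as a reference gene, rose as well (log2 fold change 1.45, SE 0.10, FDR 1.69e-05). Among genes of cholesterol synthesis and transport, 20 of 26 rose and 0 fell, most by less than 2-fold, with a median of 0.57, but only 10 rose with limma on log2(TPM + 1). The 3 DEGs were Dhcr7 (from 9.19, 6.49 and 7.31 TPM to 18.7, 13.4 and 14.4 TPM) and Mvd (from 12.1, 12.9 and 10.7 TPM to 23.5, 18.5 and 19.4 TPM), enzymes of sterol synthesis, and Soat1 (from 57.03, 73.1 and 76.1 TPM to 131, 129.8 and 145 TPM), which esterifies cholesterol for storage. Of the 30 phospholipase genes 12 rose and 7 fell, which is 40% and 23.3% beside 21.6% and 19.6% of all genes tested. The falls were thus near the background. Pla2g1b, a secreted phospholipase, went from 288, 216 and 264 TPM to 902, 906 and 861 TPM (log2 fold change 2.03, SE 0.12, FDR 6e-06) and Pla2g7, the platelet-activating factor hydrolase of macrophages, from 14.8, 14.6 and 19.98 TPM to 62.8, 96.9 and 75.1 TPM (log2 fold change 2.49, SE 0.20, FDR 3.46e-05).

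Chemokines that attract monocytes and neutrophils were among the strongest rises. Of 17 CC chemokines 10 rose and 3 fell, 9 and 1 as DEGs, with a median of 1.24. The shares were 58.8% and 17.6%, beside 21.6% and 19.6% of all genes tested. Ccl2 and Ccl7, the ligands of the monocyte receptor CCR2, went from 4.50, 1.93 and 3.25 TPM to 89.3, 84.4 and 63.5 TPM and from 2.72, 1.42 and 1.46 TPM to 70.9, 60.04 and 48.2 TPM, with log2 fold changes of 4.86 (FDR 3.6e-06) and 5.25 (FDR 2.7e-06). Ccl1 had 0, 0 and 4 counts in the control rats and 49, 75 and 28 counts in the MWCNT-treated rats. Ccl6, the CC chemokine at the highest level, rose less (log2 fold change 0.45, SE 0.082, FDR 0.00254). Ccl5, which attracts T cells, fell from 430.2, 418 and 395 TPM to 143, 234 and 237 TPM (log2 fold change -0.78, SE 0.18, FDR 0.00867) but did not pass in the model of all 18 rats (FDR 0.0867), and Ccl11 (eotaxin-1) was the DEG that fell (log2 fold change -1.24, SE 0.26, FDR 0.00557). Of 14 CXC and CX3C chemokines 9 rose and 0 fell. Cxcl3 and Cxcl17, the members at the highest level, rose by only 0.90 and 0.63 on the log2 scale and were not DEGs. The neutrophil chemokines Cxcl6, Cxcl1 and Cxcl2 rose by 4.95, 2.14 and 2.36 on the log2 scale, Cxcl6 from 2.04, 1.24 and 1.32 TPM to 59.1, 34.4 and 27.1 TPM and Cxcl1 from 32.4, 17.97 and 24.02 TPM to 108, 87.5 and 83.7 TPM. In the same libraries 6 of 12 neutrophil genes rose and 1 fell, the fall being lost without control rat 3, MWCNT rat 1 or MWCNT rat 3. S100a9 and S100a8, the calprotectin subunits, went from 140.3, 117 and 164 TPM to 671, 539 and 639.7 TPM and from 128, 79.7 and 161 TPM to 297, 246 and 286 TPM, the latter with log2 fold change 1.40 and FDR 0.000904.

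Acute phase and complement genes, usually discussed as liver products, rose in these lungs. Of 14 acute phase genes 13 rose and 0 fell, 11 as DEGs, with a median of 1.63. Lcn2 (lipocalin-2, which binds bacterial siderophores) went from 10.7, 9.36 and 15.6 TPM to 119, 102 and 98.9 TPM (log2 fold change 3.38, SE 0.17, FDR 3.22e-06), Hp (haptoglobin) from 55.5, 54.01 and 71.6 TPM to 282, 262 and 283 TPM (log2 fold change 2.42, SE 0.11, FDR 2.22e-06) and A2m (a broad protease inhibitor) from 0.568, 1.03 and 0.444 TPM to 9.49, 13.7 and 11.1 TPM (log2 fold change 4.33, SE 0.28, FDR 9.52e-06). Orm1 (orosomucoid) had 2, 0 and 1 counts in the control rats and 64, 42 and 17 counts in the MWCNT-treated rats, a ratio of 43.1 with a counting interval of 14.4 to 212. Of 27 complement genes 21 rose and 1 fell, 15 and 1 as DEGs. C3, the protein on which the complement pathways converge, went from 126, 136 and 145 TPM to 609.9, 478 and 646 TPM (log2 fold change 2.32, SE 0.10, FDR 2.25e-06). Cfi, the protease that inactivates C3b, rose more, from 12.4, 12.4 and 9.45 TPM to 126, 109 and 103 TPM (log2 fold change 3.55, SE 0.13, FDR 1.05e-06), and C6, part of the membrane attack complex, went from 6.01, 7.47 and 8.69 TPM to 34.4, 32.2 and 37.9 TPM. The inhibitors Serping1 and Cd59 went from 385, 419.8 and 376 TPM to 758, 1068 and 845 TPM and from 726, 777 and 739.9 TPM to 779.7, 846 and 758 TPM. Cd59 did not pass with library size alone (log2 fold change 0.19) or without control rat 2 or 3 (0.34 and 0.31). The member that fell was Masp1, a lectin pathway protease (log2 fold change -1.02, SE 0.12, FDR 0.000299). C4a and C4b, near-identical copies, may share reads and are not given values here.

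**Figure D3:**
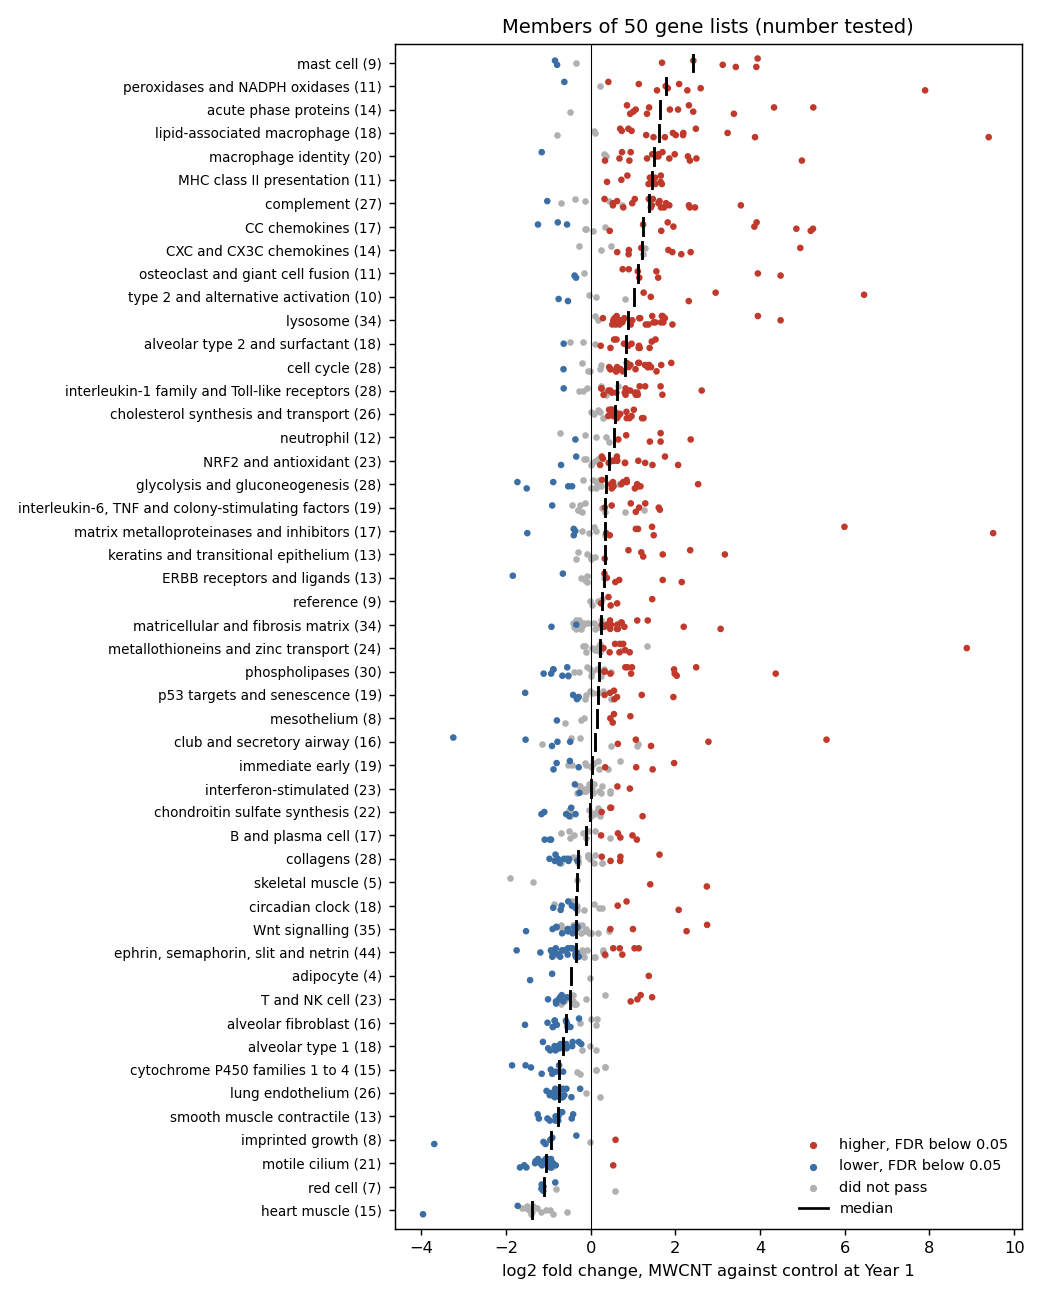
Each point is a tested member of 1 of 50 gene lists, with its log2 fold change at Year 1 on the x axis and the number of members tested in brackets, and black bars mark the list medians. Mast cell, peroxidase, acute phase and macrophage lists lie furthest to the right, and heart muscle, red cell, motile cilium and imprinted growth lists furthest to the left.

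Enzymes that make oxidants rose together with part of the defense against them. Of 11 peroxidase and NADPH oxidase genes 9 rose and 1 fell, 8 of the rises as DEGs, with a median of 1.77. Cybb and Cyba, the membrane subunits of the phagocyte oxidase, went from 124, 124 and 112 TPM to 343, 402 and 333 TPM and from 205, 177 and 202 TPM to 457, 547 and 461 TPM, with log2 fold changes of 1.82 and 1.57. The epithelial hydrogen peroxide source Duox1, which feeds lactoperoxidase, went from 2.91, 3.52 and 2.69 TPM to 17, 13.2 and 16.7 TPM (log2 fold change 2.60, SE 0.12, FDR 2.7e-06), and the organizer Noxo1 went from 13.4, 10.3 and 12.7 TPM to 57.4, 46.5 and 46.9 TPM (log2 fold change 2.28, SE 0.13, FDR 4.92e-06). The member that fell was Nox4, an oxidase of mesenchymal and endothelial cells (log2 fold change -0.62, SE 0.084, FDR 0.000574). Among 23 NRF2 target and antioxidant genes 15 rose and 2 fell, with a median of 0.43. The DEGs included Sod2, the mitochondrial superoxide dismutase (from 153, 145 and 157 TPM to 460.4, 420.4 and 425 TPM; log2 fold change 1.76, SE 0.077, FDR 2.2e-06), Hmox1, heme oxygenase-1 (from 72.7, 99.04 and 60.9 TPM to 171, 169 and 203 TPM; log2 fold change 1.46, SE 0.16, FDR 0.000159), and Ftl1, the ferritin light chain (from 1084, 927 and 1049.9 TPM to 2154, 2135 and 2058 TPM; log2 fold change 1.29, SE 0.10, FDR 2.1e-05). Slc7a11, the cystine importer for glutathione synthesis, was low but higher in every MWCNT-treated rat (from 0.552, 0.422 and 0.597 TPM to 1.74, 1.86 and 2.01 TPM). Of the 24 metallothionein and zinc transport genes 9 rose and 0 fell, and Mt3 was the sole DEG. The zinc importer Slc39a1 went from 123, 109 and 110.1 TPM to 147, 146 and 141 TPM (log2 fold change 0.58, SE 0.087, FDR 0.00099), while Slc39a4 did not pass (log2 fold change 0.18, SE 0.087, FDR 0.133).

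Type 2 and alternative activation genes rose in part. Of 10 tested 5 rose as DEGs and 2 fell, which is 50% and 20% beside 21.6% and 19.6% of all genes tested. The falls were thus near the background, and 1 fell without control rat 1, MWCNT rat 2 or MWCNT rat 3. Chia, an acidic chitinase, went from 86.1, 139.7 and 108 TPM to 806, 709 and 671 TPM (log2 fold change 2.95, SE 0.16, FDR 4.15e-06) and Chi3l1, a chitinase-like protein, from 193, 170.3 and 212 TPM to 903, 739.7 and 799 TPM (log2 fold change 2.32, SE 0.11, FDR 2.26e-06). In the interleukin-1 and Toll-like receptor list 20 of 28 rose and 1 fell. Il1rn, the interleukin-1 receptor antagonist, went from 33.2, 27.1 and 27.8 TPM to 139, 181 and 138 TPM (log2 fold change 2.62, SE 0.16, FDR 6.91e-06) and the decoy receptor Il1r2 from 3.81, 4.75 and 5.65 TPM to 11.96, 10.97 and 15.4 TPM (log2 fold change 1.65, SE 0.19, FDR 0.000239), whereas Il33, an alarmin of type 2 and endothelial cells, fell from 358, 316 and 311 TPM to 202, 166 and 171 TPM (log2 fold change -0.64, SE 0.10, FDR 0.00106). Il1b itself did not pass (FDR 0.253), at 46.9, 26.4 and 33.7 TPM in the control rats and 41.8, 38.8 and 31.9 TPM in the MWCNT-treated rats. In the list of interleukin-6, TNF and colony-stimulating factors 8 of 19 rose and 1 fell, while 5 fell without control rat 1 or with library size alone and 2 without MWCNT rat 2 or 3. Csf2ra and Csf2rb, the chains of the GM-CSF receptor that alveolar macrophages need, went from 85.01, 69.96 and 81.5 TPM to 209, 215 and 199 TPM and from 19.4, 17.5 and 19.3 TPM to 52.1, 50.8 and 42.6 TPM, with log2 fold changes of 1.64 and 1.61. Interferon-stimulated genes gave no such group. Of 23 tested 2 rose, 2 fell and 19 did not pass, with a median of -0.00257, and 9 fell with limma on log2(TPM + 1). The 2 rises and 2 falls were 8.7% each way, below the background of 21.6% and 19.6%. Irf1 and Gbp2, the members at the highest level, did not pass, with log2 fold changes of -0.32 and -0.28 and FDRs of 0.107 and 0.115. With single rats left out, the number that fell ran from 0 (control rat 2) to 4 (control rat 3 or MWCNT rat 2), and 1 rose with any single control rat left out.

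Genes of MHC class II antigen presentation rose in all 11 members tested, 8 as DEGs, with a median of 1.44. With single rats left out 9 to 10 rose. Library size alone, limma on log2(TPM + 1) and the model of all 18 rats each gave 10. Cd74, the invariant chain, went from 2609.6, 2406 and 2416 TPM to 4912, 6361 and 5305 TPM (log2 fold change 1.40, SE 0.13, FDR 8.78e-05), and Ctss, the cathepsin that trims it, from 79.9, 89.3 and 86.01 TPM to 202, 267 and 222 TPM (log2 fold change 1.68, SE 0.13, FDR 2.67e-05). RT1-Db1 and RT1-Bb, rat class II beta chains, went from 881, 818 and 791 TPM to 1741, 2413 and 1879.6 TPM and from 546, 449.9 and 493 TPM to 1163, 1543 and 1251 TPM. The class II loci are similar in sequence and may share reads. MWCNT rat 2 was the highest in each of these 4 genes. Of 23 T and NK cell genes 4 rose and 8 fell, with a median of -0.50. The shares were 17.4% and 34.8% beside 21.6% and 19.6% of all genes tested, so that the rises were below the background. The number that fell was 4 in the model of all 18 rats, 14 with limma on log2(TPM + 1) and 14 without MWCNT rat 2. Cd4, which rat macrophages also carry, went from 66.04, 73.7 and 64.5 TPM to 117, 151 and 123 TPM (log2 fold change 1.18, SE 0.13, FDR 0.000164). Foxp3 and Ctla4, genes of regulatory T cells, rose from low levels, from 0.812, 1.01 and 1.18 TPM to 2.47, 2.55 and 1.97 TPM and from 0.843, 0.997 and 1.08 TPM to 1.80, 1.83 and 1.73 TPM, with FDRs of 0.00143 and 0.013. Prf1 (perforin), a cytotoxic effector, fell from 93.6, 81.1 and 78.4 TPM to 37.6, 39.2 and 50.9 TPM (log2 fold change -0.75, SE 0.12, FDR 0.00163), with an FDR of 0.0549 in the model of all 18 rats. Of 17 B and plasma cell genes 5 rose and 3 fell, which is 29.4% and 17.6% beside 21.6% and 19.6% of all genes tested, so that the falls were near the background. Of these genes 3 rose without control rat 1 or MWCNT rat 3, and 0 fell without control rat 1, MWCNT rat 1 or MWCNT rat 3 and 1 without control rat 2 or 3. Jchain, which joins IgA and IgM, was among the rises (log2 fold change 1.09, SE 0.20, FDR 0.00239), and went from 201, 276 and 358 TPM to 421, 476 and 612 TPM, but did not pass in the model of all 18 rats (FDR 0.0702).

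Mast cell proteases rose while Kit and Gata2 fell. Of 9 mast cell genes 6 rose as DEGs and 2 fell, with the highest list median, 2.42. Tpsab1 and Tpsb2, the tryptases, went from 1.42, 0.658 and 1.20 TPM to 7.63, 23.3 and 11.3 TPM and from 1.38, 1.97 and 1.16 TPM to 7.92, 21.1 and 11.3 TPM, and Cpa3, carboxypeptidase A3, from 1.35, 1.26 and 0.775 TPM to 6.74, 26.05 and 8.97 TPM. In all 3 genes MWCNT rat 2 held more than 1.5 times the level of the other MWCNT-treated rats, and the log2 fold changes were 3.94 (FDR 0.000479), 3.43 (FDR 0.000404) and 3.91 (FDR 0.00114). The tryptases are close copies and may share reads. Kit and Gata2, which basophils, progenitors and endothelial cells also express, fell from 102, 97.4 and 95.1 TPM to 59.2, 35.98 and 50.2 TPM (log2 fold change -0.79, SE 0.14, FDR 0.0019) and from 137, 121 and 138 TPM to 73.6, 47.2 and 68.2 TPM (log2 fold change -0.84, SE 0.13, FDR 0.00122). Since Kit and Gata2 were the most abundant members, the summed level of the list went the other way from its median, from 235 to 257 TPM in the control rats against 168 to 183 TPM in the MWCNT-treated rats.

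In the alveolar epithelium, type 2 genes rose and type 1 genes fell. Of 18 type 2 cell and surfactant genes 14 rose and 1 fell, 6 of the rises as DEGs, with a median of 0.83. Sftpc, surfactant protein C, rose by 0.97 on the log2 scale (SE 0.10, FDR 0.000145). Sftpa1 went from 6592, 6622 and 6652 TPM to 14889.6, 14688 and 14720.4 TPM (log2 fold change 1.39, SE 0.091, FDR 1.06e-05), Sftpd from 339, 357 and 333 TPM to 748, 814 and 812 TPM (log2 fold change 1.44, SE 0.088, FDR 6.91e-06) and Muc1, a surface mucin of type 2 cells, from 263, 285 and 245 TPM to 691, 623 and 634 TPM (log2 fold change 1.53, SE 0.084, FDR 4.36e-06). The spread within each group was small in these genes beside the difference. The member that fell was Il33, given above. Of 18 type 1 cell genes 15 fell and 0 rose, 2 of them as DEGs, with a median of -0.64, where 19.6% of all tested genes passed downward. Cav1 (caveolin-1, also abundant in endothelium) went from 1033, 1193 and 1187 TPM to 482, 357 and 495 TPM (log2 fold change -1.13, SE 0.11, FDR 9.29e-05), Rtkn2 from 99.4, 96.96 and 112 TPM to 51.02, 29.5 and 51.2 TPM (log2 fold change -1.0, SE 0.16, FDR 0.00155) and Hopx, a homeodomain factor of type 1 cells, from 1193, 1247 and 1272 TPM to 780.1, 743 and 807 TPM (log2 fold change -0.44, SE 0.069, FDR 0.00129). Ager, the receptor RAGE and the type 1 marker at the highest level, did not pass (log2 fold change -0.20, SE 0.10, FDR 0.124; 2218, 1918 and 2039.5 TPM in the control rats and 1592, 1331 and 1649.5 TPM in the MWCNT-treated rats). The summed level of the 2 lists was 38772 to 40188 TPM for type 2 genes in the control rats and 64012 to 65280.2 TPM in the MWCNT-treated rats, and 9731 to 10059 TPM against 5261 to 6642 TPM for type 1 genes.

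Keratins and genes of transitional epithelium rose in part, 7 of 13, with 0 falls, or 2 falls with limma on log2(TPM + 1). Krt14 and Krt17, keratins of basal and injured epithelium, rose from near 0, from 0.0677, 0.314 and 0.476 TPM to 1.99, 2.94 and 1.98 TPM (log2 fold change 3.17, SE 0.48, FDR 0.00102) and from 0.278, 0.323 and 0.272 TPM to 0.584, 1.91 and 1.28 TPM (log2 fold change 2.35, SE 0.54, FDR 0.00828). Krt17 missed the threshold in the model of all 18 rats (FDR 0.0502). Cldn4, a tight junction protein of stressed alveolar epithelium, went from 10.5, 8.14 and 9.997 TPM to 26.6, 31.4 and 20.8 TPM (log2 fold change 1.70, SE 0.19, FDR 0.000196). The abundant simple-epithelium keratins Krt19 and Krt7 had log2 fold changes of 0.02 (FDR 0.845) and -0.0015 (FDR 0.989), and the sign of both turned under other settings. Krt19 passed downward with limma on log2(TPM + 1) (log2 fold change -0.22, FDR 0.01628). Of 13 ERBB receptors and ligands 6 rose and 2 fell, but 3 rose with library size alone or with limma on log2(TPM + 1), and 1 fell when control rat 2, control rat 3 or any single MWCNT-treated rat was left out. The shares of 6 and 2 were 46.2% and 15.4%, beside 21.6% and 19.6% of all genes tested. Among the ligands, Areg and Ereg (amphiregulin and epiregulin) went from 2.53, 4.001 and 3.47 TPM to 12.02, 15.1 and 10.5 TPM and from 2.27, 3.65 and 2.37 TPM to 7.63, 8.07 and 7.08 TPM, with log2 fold changes of 2.15 (FDR 0.000218) and 1.70 (FDR 0.000337). The receptor gene Erbb4 fell from 1.41, 1.20 and 1.64 TPM to 0.351, 0.248 and 0.414 TPM (log2 fold change -1.84, SE 0.30, FDR 0.00165). Of the other receptor genes, Erbb3 rose (log2 fold change 0.38, SE 0.089, FDR 0.00844), though not with library size alone (FDR 0.0544) or limma on log2(TPM + 1) (FDR 0.335), and Erbb2 did not pass (log2 fold change -0.14, SE 0.11, FDR 0.317).

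Genes of airway cells fell in their ciliated part and were mixed in their secretory part. Of 21 motile cilium genes 19 fell and 1 rose, 12 of the falls as DEGs, with a median of -1.06, and 19 fell whichever rat was left out. Tppp3, a tubulin-binding protein and the member at the highest level, went from 1143, 1177 and 1077 TPM to 422, 373 and 427 TPM (log2 fold change -1.24, SE 0.074, FDR 6.45e-06). The outer arm dynein chains Dnah5 and Dnah9 went from 3.11, 5 and 3.47 TPM to 1.06, 0.834 and 1.21 TPM (log2 fold change -1.67, SE 0.19, FDR 0.000239) and from 9.02, 12.8 and 10.9 TPM to 3.02, 2.31 and 4.07 TPM (log2 fold change -1.57, SE 0.18, FDR 0.000211), and Hydin, of the central pair, from 8.04, 11.6 and 10.2 TPM to 2.81, 2.20 and 3.87 TPM (log2 fold change -1.52, SE 0.18, FDR 0.000278). Cfap126 went from 51.7, 56.9 and 53.1 TPM to 18.3, 25.1 and 24.1 TPM (log2 fold change -1.02, SE 0.14, FDR 0.000585). The member that rose was Tekt2 (log2 fold change 0.53, SE 0.10, FDR 0.00283). Of 16 club and secretory airway genes 5 rose and 5 fell, 31.25% each way beside the background of 21.6% and 19.6%. Scgb1a1, the club cell secretoglobin, went from 27016, 32241 and 25438 TPM to 11829.6, 13651 and 12594 TPM (log2 fold change -0.91, SE 0.12, FDR 0.000559). Rising members were Bpifb1, an airway secretory protein (from 7.41, 36.3 and 17.3 TPM to 134, 114 and 107 TPM; log2 fold change 2.78, SE 0.40, FDR 0.0008), and Pigr, which carries IgA into the airway (from 718, 797 and 743 TPM to 1360.2, 1227 and 1437 TPM; log2 fold change 1.07, SE 0.081, FDR 2.42e-05). Cytochrome P450 genes, several of them typical of club and type 2 cells, fell in 9 of 15 and rose in 0, with a median of -0.74. Cyp4b1 went from 781, 836 and 771 TPM to 333, 266 and 313 TPM (log2 fold change -1.16, SE 0.081, FDR 1.66e-05), Cyp2e1 from 24.9, 20.4 and 27.6 TPM to 7.39, 6.42 and 9.64 TPM (log2 fold change -1.41, SE 0.16, FDR 0.000218) and Cyp2f4 from 84.01, 131 and 109.7 TPM to 17.9, 38.1 and 38.01 TPM (log2 fold change -1.54, SE 0.27, FDR 0.00228). P450 genes of a subfamily are similar and may share reads.

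**Figure D4:**
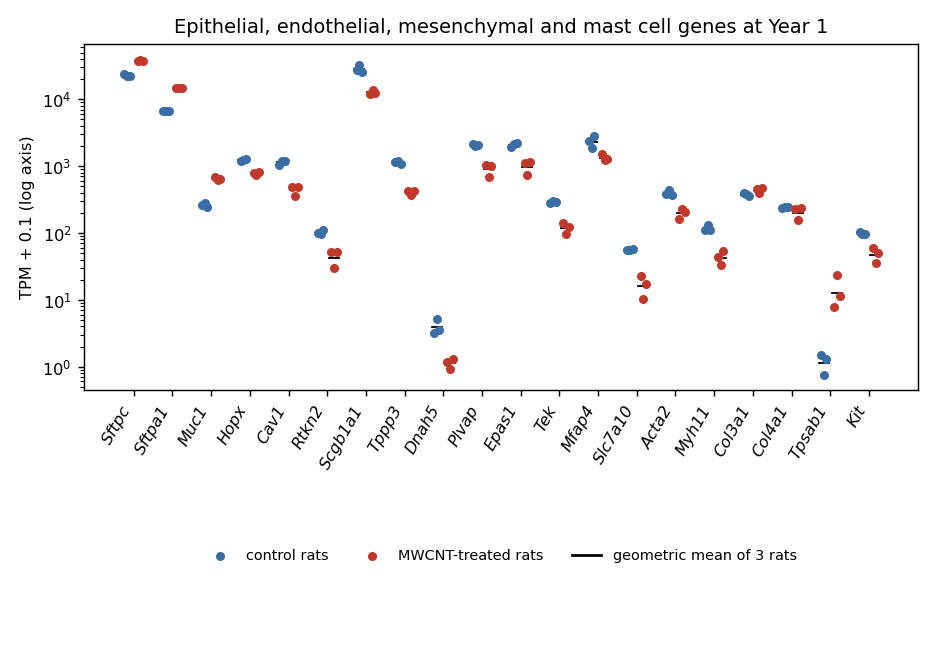
The level of 20 genes of alveolar and airway epithelium, endothelium, mesenchyme and mast cells is shown in each rat as TPM + 0.1 on a log axis, control rats in blue and MWCNT-treated rats in red, with bars at the geometric mean of 3 rats. On this TPM scale Sftpc, Sftpa1, Muc1, Col3a1 and Tpsab1 are higher and the other genes lower in the MWCNT-treated rats, with the groups nearly touching in Col4a1.

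Endothelial genes fell together by modest amounts. Of 26 lung endothelial genes 24 fell and 0 rose, with a median of -0.75, and Tek alone was a DEG. Tek (the angiopoietin receptor) went from 281, 298 and 288 TPM to 139, 97.2 and 123 TPM (log2 fold change -1.04, SE 0.10, FDR 0.000103), Plvap (a protein of endothelial fenestrae) from 2115, 1984 and 2077 TPM to 1051, 696 and 1013 TPM (log2 fold change -0.94, SE 0.13, FDR 0.000575) and Epas1 (HIF-2 alpha) from 1964, 2117 and 2181 TPM to 1127, 735 and 1139 TPM (log2 fold change -0.83, SE 0.14, FDR 0.00163). MWCNT rat 2 was the lowest in all 3, and the summed level of the list was 10502 to 10962 TPM in the control rats and 5921, 4122 and 5792 TPM in the MWCNT-treated rats. Red cell genes fell in the same libraries, 5 of 7, with summed levels of 18156 to 23926 TPM against 7065 to 9617 TPM. Hba-a1 and Hbb, hemoglobin chains, went from 11899.9, 9093 and 11227 TPM to 4287, 3528 and 4864 TPM and from 7199.8, 5439 and 6748 TPM to 2607, 2222 and 2824 TPM (log2 fold changes -1.12 and -1.11). The amount of blood in each piece was not measured and its part in these results was not tested. Hemoglobin genes are near-identical copies that may share reads.

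Smooth muscle contractile genes fell in all 13 members tested, 3 as DEGs, with a median of -0.77, and 13 fell whichever rat was left out. Acta2 and Tagln, the members at the highest level, went from 385, 438 and 374 TPM to 161, 230.3 and 204 TPM (log2 fold change -0.76, SE 0.14, FDR 0.00316) and from 426, 447 and 416 TPM to 187, 221 and 206 TPM (log2 fold change -0.83, SE 0.10, FDR 0.000259), and Myh11, smooth muscle myosin, from 112, 133 and 111 TPM to 43.8, 33.03 and 53.2 TPM (log2 fold change -1.22, SE 0.14, FDR 0.000226). Heart muscle genes, which pieces of lung can carry in the sleeves of pulmonary veins, moved beside them in an uneven way. The summed level of the heart muscle list was 255, 701 and 519 TPM in the control rats and 21.7, 287 and 203 TPM in the MWCNT-treated rats, so that the groups overlapped. Of the 15 members tested 2 fell and 0 rose, with 4 falls without MWCNT rat 2 and 1 without control rat 2, control rat 3 or MWCNT rat 3. The 2 falls were 13.3% of the members tested, beside 19.6% of all genes tested. Myl2, a ventricular myosin light chain, was the larger fall (log2 fold change -3.96, SE 0.71, FDR 0.00237), from 4.51, 11.5 and 7.53 TPM to 0, 0.218 and 1.01 TPM, and Actc1, the cardiac actin, did not pass (log2 fold change -1.27, SE 0.58, FDR 0.108). The part of heart muscle in the smooth muscle result was not tested. Of 5 skeletal muscle genes 2 rose, 0 fell and 3 did not pass, with a median of -0.33. Acta1, the skeletal muscle actin, rose from 0.603, 1.59 and 1.10 TPM to 4.73, 6.85 and 7.32 TPM (log2 fold change 2.74, SE 0.34, FDR 0.000361), whereas the summed level of the skeletal muscle list was 25.1, 73.2 and 42.3 TPM in the control rats and 12.7, 29.4 and 23.6 TPM in the MWCNT-treated rats.

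Alveolar fibroblast genes fell in 12 of 16 and rose in 0, with a median of -0.57. Mfap4, a microfibril protein, went from 2356, 1891 and 2825 TPM to 1502, 1245 and 1269 TPM (log2 fold change -0.58, SE 0.14, FDR 0.0111; -0.59 with an FDR of 0.398 in the model of all 18 rats), Fgfr4 from 91.3, 82.5 and 84.4 TPM to 44.6, 26.4 and 38.2 TPM (log2 fold change -1.02, SE 0.14, FDR 0.000718) and Slc7a10, an amino acid transporter of lipofibroblasts, from 56.2, 55.8 and 57.9 TPM to 22.6, 10.03 and 17.2 TPM (log2 fold change -1.55, SE 0.21, FDR 0.000551). Collagens showed no joint rise. Of 28 collagens 5 rose and 10 fell, with a median of -0.29. These shares were 17.9% and 35.7%, beside 21.6% and 19.6% of all genes tested, so that the rises were below the background. Col3a1, a fibrillar collagen and the one at the highest level, went from 390.0, 376 and 356 TPM to 455, 399 and 468 TPM (log2 fold change 0.47, SE 0.081, FDR 0.00208), while Col4a1 of the basement membrane had log2 fold change -0.014 (FDR 0.938). Col16a1 was the sole collagen DEG (from 39.1, 35.8 and 37.1 TPM to 111, 81.6 and 102 TPM; log2 fold change 1.63, SE 0.10, FDR 6.91e-06). With library size alone 3 collagens rose and 14 fell, and 8 rose without MWCNT rat 2 but 3 without control rat 3, MWCNT rat 1 or MWCNT rat 3. Of 34 matricellular and fibrosis matrix genes 16 rose and 2 fell, which is 47.1% and 5.88% beside 21.6% and 19.6% of all genes tested, and with limma on log2(TPM + 1) 9 rose and 9 fell. Without control rat 2 the falls were 1, and without MWCNT rat 2 they were 4. Thbs2 (thrombospondin-2) went from 2.16, 2.12 and 1.75 TPM to 16.2, 11.9 and 14.9 TPM (log2 fold change 3.07, SE 0.13, FDR 2.01e-06) and Thbs1 from 52.9, 41.6 and 38.6 TPM to 108, 96.1 and 83.3 TPM (log2 fold change 1.35, SE 0.15, FDR 0.000163). Sparc and Bgn, the members at the highest level, had log2 fold changes of 0.079 (FDR 0.471) and 0.26 (FDR 0.0203). Bgn did not pass with limma on log2(TPM + 1) (0.024), with library size alone (0.13) or without control rat 2, control rat 3 or MWCNT rat 1 (each 0.25), and the sign of Sparc turned with library size alone.

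Matrix proteases and their inhibitors rose in part. Beside Mmp7 and Mmp12, 6 other members of the 17 matrix metalloproteinase and inhibitor genes rose and 4 fell. With Mmp7 and Mmp12 the rises were 47.1% and the falls 23.5% of the list, beside 21.6% and 19.6% of all genes tested. Without control rat 3, 1 fell, and without MWCNT rat 1 or 2, 2 fell. The inhibitor Timp1 rose from 82.5, 77.6 and 76.1 TPM to 138, 152 and 129 TPM (log2 fold change 1.07, SE 0.11, FDR 0.000109). Timp2, the inhibitor at the highest level, did not pass (log2 fold change 0.088, SE 0.068, FDR 0.32; 526, 536 and 520.4 TPM in the control rats and 485, 458 and 485 TPM in the MWCNT-treated rats), and its sign turned with library size alone. Timp3 fell from 326, 424 and 409 TPM to 251, 202 and 295 TPM (log2 fold change -0.40, SE 0.13, FDR 0.0317), a call that was lost without control rat 2 or 3 or MWCNT rat 1 or 2 (log2 fold changes -0.34, -0.36, -0.39 and -0.30), and Timp4 fell from a low level (log2 fold change -1.49, SE 0.35, FDR 0.00885).

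Growth and signalling genes gave smaller groups. Cell cycle genes rose in 22 of 28 and fell in 1, 11 of the rises as DEGs, with a median of 0.81. Cdc6, a replication licensing factor, went from 0.568, 0.748 and 0.518 TPM to 2.03, 2.16 and 1.62 TPM (log2 fold change 1.90, SE 0.28, FDR 0.000945), Ccnb1, a mitotic cyclin, from 3.87, 2.42 and 2.67 TPM to 8.08, 8.47 and 7.52 TPM (log2 fold change 1.67, SE 0.22, FDR 0.000559) and Pcna, the replication clamp, from 89.5, 95.6 and 93.7 TPM to 105, 115 and 105 TPM (log2 fold change 0.46, SE 0.087, FDR 0.003). Ccnd1 did not pass (log2 fold change -0.21, SE 0.089, FDR 0.0828). Of 19 p53 target and senescence genes 7 rose and 4 fell, 36.8% and 21.1% beside the background of 21.6% and 19.6%. There was 1 fall left without control rat 2, control rat 3 or MWCNT rat 1, and 2 without MWCNT rat 2. Cdkn2a went from 1.58, 1.32 and 0.370 TPM to 3.31, 4.11 and 3.04 TPM (log2 fold change 1.95, SE 0.47, FDR 0.00984), Gadd45g from 52.1, 80.5 and 74.1 TPM to 133, 129.7 and 142 TPM (log2 fold change 1.21, SE 0.13, FDR 0.000181), and Igfbp3, which binds insulin-like growth factors, fell from 64.9, 69.7 and 64.6 TPM to 18.4, 19.7 and 19.7 TPM (log2 fold change -1.55, SE 0.083, FDR 4.15e-06). Cdkn1a (p21) did not pass (log2 fold change 0.48, SE 0.18, FDR 0.0606; 74.3, 140.0 and 113 TPM in the control rats and 119, 129.8 and 139 TPM in the MWCNT-treated rats).

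Of 8 imprinted growth genes 6 fell and 1 rose, with Igf2 (from 4.48, 3.76 and 3.60 TPM to 1.33, 1.35 and 1.97 TPM; log2 fold change -1.11, SE 0.19, FDR 0.00176) and Plagl1 (from 8.24, 11.4 and 10.7 TPM to 5.62, 2.39 and 4.45 TPM; log2 fold change -1.07, SE 0.24, FDR 0.00736) next to Dlk1, and Igf2r, the receptor that clears Igf2, as the rise (log2 fold change 0.59, SE 0.11, FDR 0.00356). The call on Igf2r was lost with limma on log2(TPM + 1) and log2(TPM + 0.1), where the log2 fold change was 0.33 and 0.34 and the FDR 0.0796 and 0.0814. In the Wnt list 4 of 35 rose and 13 fell, and 20 fell with library size alone but 8 without control rat 1. The shares of 4 and 13 were 11.4% and 37.1%, beside 21.6% and 19.6% of all genes tested. Rspo3, a Wnt agonist, was the largest rise (from 1.46, 1.75 and 1.69 TPM to 7.73, 9.70 and 10.6 TPM; log2 fold change 2.75, SE 0.18, FDR 9.56e-06), and Wnt2b was the DEG that fell (from 3.99, 6.81 and 4.14 TPM to 1.37, 0.766 and 2.31 TPM; log2 fold change -1.53, SE 0.37, FDR 0.0111). Of 44 ephrin, semaphorin, slit and netrin genes 6 rose (3 without control rat 3) and 23 fell, with a median of -0.35. The shares of 6 and 23 were 13.6% and 52.3%, beside the same background. Sema3g, of arterial endothelium, fell from 293, 257 and 289 TPM to 149, 85.1 and 141 TPM (log2 fold change -0.94, SE 0.16, FDR 0.0022), Robo2, a slit receptor, fell from 6.19, 6.57 and 7.002 TPM to 2.98, 1.88 and 2.56 TPM (log2 fold change -1.19, SE 0.13, FDR 0.000206) and Sema4a rose from 96.6, 86.4 and 93.5 TPM to 189, 158 and 170.1 TPM (log2 fold change 1.14, SE 0.084, FDR 2.09e-05). Glycolysis and gluconeogenesis genes rose in 14 of 28 and fell in 5, which is 50% and 17.9%. The falls were thus near the background, and 1 to 3 fell without control rat 1 or 2 or MWCNT rat 1 or 3. Hk3, the hexokinase of myeloid cells, was the largest rise (from 9.56, 7.78 and 8.41 TPM to 41.5, 44.1 and 41.2 TPM; log2 fold change 2.54, SE 0.11, FDR 2.21e-06). Of 22 chondroitin sulfate synthesis genes 4 rose and 6 fell, 18.2% and 27.3% beside the background of 21.6% and 19.6%, with Xylt1 from 3.72, 3.24 and 2.37 TPM to 6.01, 4.38 and 8.23 TPM upward and Chst3 from 14.04, 22.9 and 24.1 TPM to 7.94, 5.24 and 10.2 TPM downward.

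Clock and immediate early genes follow the hour and the handling of tissue. Of 18 clock genes 3 rose and 6 fell, or 3 without control rat 2 or 3. The 3 rises and 6 falls were 16.7% and 33.3%, beside 21.6% and 19.6% of all genes tested, so that the rises were below the background. Nr1d1, the clock repressor, varied widely among the control rats (55.7, 114 and 128 TPM in the control rats and 32.1, 37.8 and 69.4 TPM in the MWCNT-treated rats) and did not pass (FDR 0.0616), while Bhlhe41 rose from 12.2, 12.4 and 13.6 TPM to 45.9, 48.6 and 42.4 TPM (log2 fold change 2.08, SE 0.12, FDR 4.92e-06). Of 19 immediate early genes 4 rose and 4 fell, 21.1% each way and near the background of 21.6% and 19.6%. Egr2 rose from 3.84, 3.20 and 3.63 TPM to 11.7, 12.97 and 10.8 TPM (log2 fold change 1.97, SE 0.14, FDR 1.98e-05) and Dusp1 fell from 654, 813 and 776 TPM to 346, 248 and 449 TPM (log2 fold change -0.88, SE 0.17, FDR 0.00331). Among 8 mesothelial genes 4 rose and 1 fell, Msln from 60.6, 61.4 and 63.6 TPM to 86.3, 66.8 and 73.8 TPM (log2 fold change 0.52, SE 0.084, FDR 0.0014; FDR 0.102 in the model of all 18 rats), but 1 rose with library size alone and 2 without control rat 2, control rat 3 or MWCNT rat 1. Of 4 adipocyte genes 1 rose and 2 fell (1 without control rat 2), and none of the cartilage genes passed the filter on low counts. Of 9 reference genes 5 rose, among them Actb (log2 fold change 0.47, SE 0.094, FDR 0.00402), and 0 fell, while B2m did not pass (log2 fold change 0.27, SE 0.12, FDR 0.0946).

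The treatment effect at Year 1 was set beside that at the other time points, where other rats and their own controls were used. Of the 880 higher DEGs at Year 1, 673 were also higher DEGs at Year 0.5, which is 76.5% of the Year 1 list and 77.4% of the 869 at Year 0.5. At Year 2 the shared number was 733, which is 83.3% of the Year 1 list and 62.4% of the 1174 at Year 2. Of the 587 lower DEGs, 197 were shared with Year 0.5 (33.6% of the Year 1 list and 45.4% of 434) and 403 with Year 2 (68.7% and 34.1% of 1181). No DEG had the opposite direction at Year 0.5, and 1 had it at Year 2. A gene that is a DEG at a single time point is not thereby shown to differ between times, so the difference of the effects was tested in a model of all 18 rats over 14843 genes.

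Between Year 0.5 and Year 1, 0 genes differed in their treatment effect at an FDR below 0.05 in edgeR's quasi-likelihood test (0%), with 1260 genes (8.49%) at an unadjusted p under 0.05. DESeq2 called 6 genes, with 1189 at an unadjusted p under 0.05. The smallest FDR was 0.351, for Foxs1, whose log2 fold change was 0.49 at Year 0.5 and 2.08 at Year 1. Pla2g2a, a secreted phospholipase, had values of 0.24 and 1.98, and Fam167a of 0.10 and -1.05, and neither passed the test of the difference. Between Year 1 and Year 2, 71 genes (0.478%) differed, 47 with a more positive and 24 with a more negative effect at Year 2, and 2446 (16.5%) had an unadjusted p under 0.05. Of the 47, 32 had passed upward at Year 1 and 4 downward. Of the 24, 18 had passed downward and 3 upward. Fabp4 had log2 fold changes of 3.88 at Year 1 and 5.18 at Year 2 (interaction FDR 0.0431), and Lpl, lipoprotein lipase, of 0.74 and 1.6 (interaction FDR 0.0155). Slc7a10 had -1.55 and -3.52 (interaction FDR 0.0277). The number of such genes rested on single rats and ran from 1 to 416 when each of the 12 rats of these 2 times was left out in turn.

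**Figure D5:**
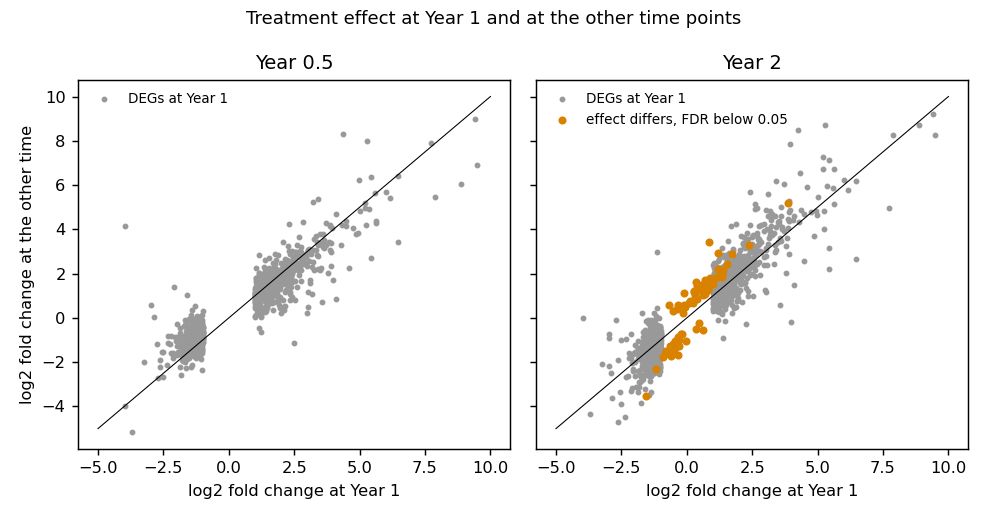
Each grey point is a DEG at Year 1, with its log2 fold change at Year 1 on the x axis and that at Year 0.5 (left) or Year 2 (right) on the y axis, and the line marks equal values. Orange points are the 71 genes whose treatment effect differed between Year 1 and Year 2 at an FDR below 0.05, most of them on the side of the line away from 0.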

How the data were processed

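Lung RNA of 18 rats was sequenced at 3 time points, and the 6 rats of Year 1 enter the main comparison. Per the labels and the methods of the study, total RNA was extracted with RNeasy columns, libraries were made with the NEBNext Ultra II RNA kit, and reads were mapped to Rnor_6.0 (rn6) and counted per gene in CLC Genomics Workbench. Whether counting used strand is not given in the sources used here. The authors deposited, for each rat and gene, raw read counts (whole numbers, not normalized) and TPM values, which they had scaled by transcript length and library. A further 36 per-sample columns, 18 of RPKM and 18 of CPM, were not used, nor were the columns of the authors' own comparisons, which hold fold changes and p-values.

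The 14345 of 22081 genes that passed filterByExpr (minimum count 10, minimum total 15) were tested with edgeR 4.0.16 in R 4.3.3, by the quasi-likelihood test on counts with TMM scaling and Benjamini-Hochberg adjustment (FDR, over all genes tested). SE is the log2 fold change divided by the square root of F. Interactions with time were tested in one model of all 18 rats, in 2 contrasts. Alternatives used DESeq2 1.42.0 and limma 3.58.1. Promoters were matched by symbol to RefSeq (GRCr8), a different build from that of the counts. The steps were run on data simulated with the same spread for all genes and with changes placed only in well-counted genes. Such data do not show how often a change in a low-count gene would be found in these rats. Each library is 1 rat, so p-values measure the spread between rats. Intervals and floors cover counting error only.

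Genes were named by rule. These were the 12 largest rises and the 12 largest falls with groups that do not overlap and at least 20 counts in every rat of the higher group, for each list the 2 members with the highest mean TPM and the 3 DEGs with the largest change, and for each interaction the 5 smallest FDRs in each direction where all rats of some group held 20 counts or more. Lyz2, Cd163, Ccl11, Masp1, Nox4, Tekt2, Timp1, Itgb3, Tnfrsf11b and Il1b were chosen after their values were seen. Members and lists were chosen with earlier results of these data known. Reads that near-identical genes share cannot be separated in these counts.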

Additional observations from a re-analysis of the deposited data

Results flagged for a closer look

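Between Year 1 and Year 2 the treatment effect differed in 71 of 14843 genes at an FDR below 0.05 (edgeR quasi-likelihood test, one model of all 18 rats). The difference of the log2 fold changes, Year 2 minus Year 1, was 1.31 for Fabp4 (a fatty acid carrier), 1.27 for Mertk (a receptor for dying cells), 0.88 for Lpl (lipoprotein lipase), 0.92 for Heph (a copper ferroxidase), 0.79 for Lamb1 (a laminin chain) and 1.25 for Slc18a2 (a vesicular monoamine transporter). It was -1.95 for Slc7a10 (an amino acid transporter), -0.98 for Npw (neuropeptide W), -1.17 for Trib3 (a stress-induced pseudokinase), -1.12 for Lrrn3 (a neuronal leucine-rich repeat protein), -1.10 for Gsta4 (a glutathione transferase) and -0.84 for Slc16a12 (a creatine transporter). Their own log2 fold changes at Year 1 and at Year 2 were 0.36 and 1.62 for Mertk, -0.34 and 0.57 for Heph, -0.36 and 0.42 for Lamb1, -0.11 and 1.12 for Slc18a2. The values that became more negative were -0.039 and -1.03 for Npw, 0.64 and -0.55 for Trib3, -1.16 and -2.30 for Lrrn3, -0.59 and -1.71 for Gsta4 and -0.63 and -1.48 for Slc16a12. Without control rat 3 of Year 1 the 71 became 1, and without control rat 3 of Year 2 they became 416.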

How the results depend on the processing

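With 3 rats a side, genes at a few counts gave wide errors. The 1467 DEGs were 1291 to 1572 when each rat was left out in turn, and the 5913 genes with an FDR below 0.05 were 4275 to 5477. Against a minimum fold change of 2 (glmTreat) 403 genes passed, 364 higher and 39 lower. Limma on log2(TPM + 1) gave 472 higher DEGs, and 1708 higher and 5427 lower genes by FDR alone. Limma on log2(TPM + 0.1) gave 1173 lower DEGs, and 1699 higher and 5367 lower by FDR. Library size alone gave 895 lower DEGs and 4316 lower by FDR. The replicate numbers did not pair the rats (correlation of deviations 0.13, 0.012 and 0.079), and with the replicate block 1493 DEGs were called, 5561 genes passed the FDR, and 12 heart muscle genes fell in place of 2. Among the 0 genes of the Year 1 against Year 0.5 interaction, DESeq2 called 6, the likelihood ratio test 2, limma on log2(TPM + 1) 1 and the replicate block 1, and leaving out single rats 0 to 1. The 71 genes of the Year 2 against Year 1 interaction were 44 without a filter, 166 with at least 10 counts in every rat, 46 with library size alone, 512 with DESeq2, 420 with the likelihood ratio test, 39 with limma on log2(TPM + 0.1), 38 with only the 12 rats, 1 with the replicate block and 1 at an FDR below 0.01. Leaving out single rats gave 1 to 416: at Year 1, 159, 11 and 1 without control rats 1, 2 and 3 and 15, 248 and 12 without MWCNT rats 1, 2 and 3, and at Year 2, 14, 7 and 416 and 10, 16 and 80. The cause was not tested. Of 243 named genes 233 kept their direction under every alternative in which they were tested, and 186 also their call. Genes such as Mmp7, Mt3 and Lpo were tested in 16 of the 17 alternatives. The log2 fold changes that turned were small, but Krt19 passed downward with limma on log2(TPM + 1) (FDR 0.01628) and on log2(TPM + 0.1) (FDR 0.01665). With library size alone they were -0.046 for Timp2, -0.11 for Krt19, -0.055 for Sparc, -0.12 for Wif1 and -0.13 for Jund, and with upper quartile scaling -0.016 for Krt19, -0.025 for Wif1 and -0.032 for Jund. With either limma fit they were -0.15 for Timp2, -0.059 and -0.060 for Slc39a4, -0.057 and -0.058 for B3gat3, -0.22 for Krt19, -0.15 for Sparc, -0.22 for Wif1 and -0.19 for Jund. Jund was also -0.0028 with RLE factors, -0.0030 with DESeq2 and -0.0032 in the model of all 18 rats. With single rats left out the values ran from -0.031 to 0.058 for Krt19, -0.050 to 0.041 for Krt7, -0.11 to 0.12 for Col4a1, -0.038 to 0.069 for Wif1, -0.13 to 0.28 for Jund and -0.076 to 0.017 for Npw. Requiring 10 counts in every rat left 6 of the 10 rising CC chemokines and 2 of the 6 rising mast cell genes, since that filter drops genes near 0 in control rats.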
